A study of Mus musculus with 20 samples.

Results

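The 10 genes described here encode the MiT/TFE transcription factors Mitf, Tfe3, Tfeb and Tfec, and 6 other factors of the melanocyte lineage and its states, Sox10, Pax3, Tfap2a, Sox9, Zeb2 and Zeb1. They were chosen by name, with earlier results of these data known, from the 46603 gene identifiers of the deposited count table. All 10 were found, and 9 of them passed the filter on low counts in the melanoma cells. Tfec did not pass it.

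MITF is the basic helix-loop-helix leucine zipper factor that drives the pigment genes of melanocytes. It binds DNA as a dimer with itself or with its relatives TFE3, TFEB and TFEC, which read similar E-box sequences. TFEB and TFE3 are best known as activators of lysosome and autophagy genes. They are held in the cytoplasm by mTORC1 until a lack of nutrients or calcium signals free them. SOX10, a neural crest factor, and PAX3 act on the Mitf promoter, and TFAP2A works at many of the same pigment genes. ZEB2 is a zinc finger repressor of differentiated melanocytes, while ZEB1 and SOX9 are linked to less pigmented melanoma states.

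RNA was sequenced from mouse cells in 20 libraries, 2 for each of 10 groups. B16F10, a pigmented mouse melanoma line, carried either a control genotype or a knockout (KO) of Ccdc101 (now named Sgf29, a chromatin reader of the SAGA and ATAC acetyltransferase complexes). Each genotype received either dimethyl sulfoxide as vehicle or 50 ng/mL of thapsigargin (TG), which blocks the calcium pumps of the SERCA family, and was kept so for 8 hours. The T cell groups were CD8 cells of the OT-I T cell receptor line carrying Cas9. Control T cells were resting or had been given anti-CD3 at 2.5 µg/mL for 24 hours, each with TG at 50 ng/mL or vehicle for 8 hours. T cells with a KO of Atp2a2, the gene of SERCA2, had vehicle only, for 8 hours, and were labelled resting or activated. Those labelled activated had the same anti-CD3 dose and time. All cultures were kept in puromycin. Whether a KO culture is 1 clone or a pool is not given in the sources used here.

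Depth ran from 9985311 to 17462770 counts per library, and from 10663938 to 16204005 in melanoma. Levels are given as CPM, counts relative to library size after scaling by trimmed means, with 1 value per library. The 2 libraries of a group are not stated to be separate cultures, so the p values measure the spread between libraries, which may be technical. Sgf29, the targeted gene, had 27.9 and 26.4 CPM in control melanoma with vehicle and 18.2 and 17.4 in the KO. It had 33.8 and 33.3 CPM in control cells with TG and 25.3 and 23.3 in the KO with TG, all on the scale of the 20 libraries together, so its mRNA was lower in the KO in both cases and did not disappear. The 5 melanocyte markers Pmel, Mlana, Tyr, Tyrp1 and Dct summed to between 9930 and 15100 CPM in melanoma libraries on the scale of all 20 libraries. In T cells the same sum was 0 to 6.75 CPM. The 4 keratinocyte markers had no count in melanoma.

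The Mitf gene lies on chromosome 6 of GRCm38, from 97807052 to 98021349 on the plus strand, and is read from several alternative first exons. The most 3′ of these, known as the M promoter, is the one used in melanocytes. RefSeq lists 3 Mitf starts in its GRCm38.p6 promoter table, and the window before the most 3′ of them is shown because cAMP signals from MC1R are known to reach Mitf through a CRE there. The 250 bases lie at chr6:97991533-97991782 on the plus strand, just before the start at 97991783. The capitals mark TGACGTCA, the CRE, at 153 to 146 bases before that start.
Mitf start 3: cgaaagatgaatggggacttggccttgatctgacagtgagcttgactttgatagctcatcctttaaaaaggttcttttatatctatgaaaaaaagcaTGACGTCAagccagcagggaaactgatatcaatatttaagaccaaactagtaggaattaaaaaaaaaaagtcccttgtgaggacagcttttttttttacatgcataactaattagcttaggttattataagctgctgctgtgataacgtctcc
Of 32851 promoter windows of this length, 1.55% held TGACGTCA on either strand. The counts sum over all Mitf starts, so the levels below do not tell which start was used.

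8 motifs were searched on both strands in the 15 windows of 6 of the genes (Mitf, Tfap2a, Tfe3, Tfeb, Tfec and Zeb2). Zeb1, on chromosome 18, was left out of this search. These were CACGTG (the E-box), CATGTG (the core of the M-box), TCACGTGA (the CLEAR core, which contains the E-box), ACAAAG and ACAATG (bound by SOX factors), CAGGTG (bound by ZEB factors), TGACGTCA and TGATGCAA (bound by ATF4 with CHOP). Only 4 matches were found. Beside the CRE they were CAGGTG at the second Mitf start, ACAAAG at the fourth Zeb2 start and ACAATG, on the other strand, at the Tfec start. CAGGTG was held by 17.2% of all windows, ACAAAG by 16.5% and ACAATG by 10.7%. A match is a description of letters and not a binding site. For Sox10, Pax3, Sox9 and Zeb1 no sequence is printed.

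**Figure D1:**
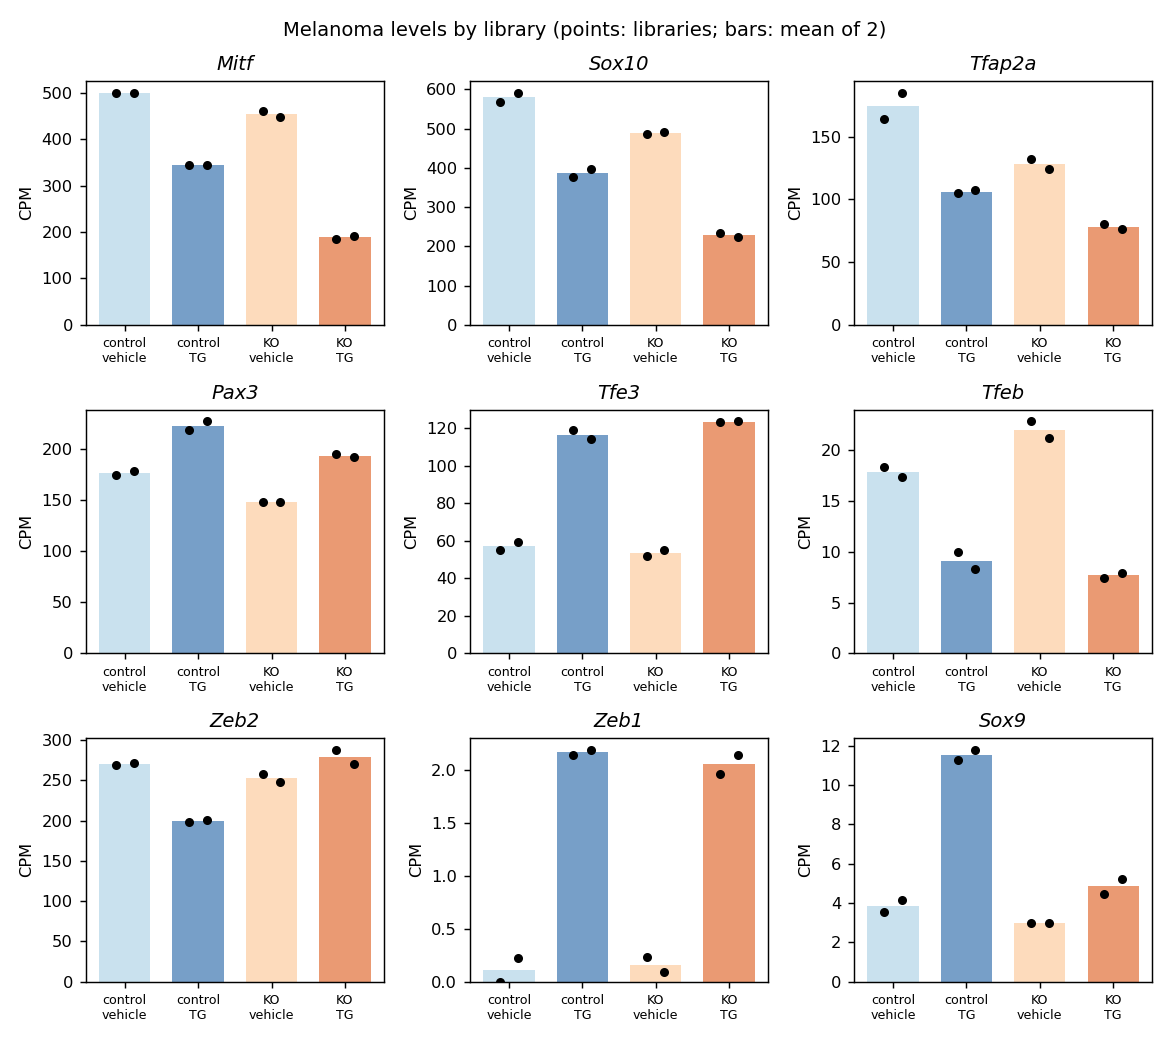
CPM (y axis, linear, from 0, a different range in each panel) of the 9 measurable factors in the 4 melanoma groups (x axis), with 1 point per library and bars at the mean of 2. Mitf and Sox10 are lowest in KO cells with TG, Tfe3 stands above 110 CPM only in the groups with TG, and Zeb2 is lowest in control cells with TG.

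In control melanoma cells with vehicle, Sox10 was the most abundant of the factors per length of its exons. It had 190 ± 5.4 CPM per kb of merged exons (SD, n = 2), followed by Mitf with 80.7 ± 0.050, Tfap2a with 35.5 ± 3.1 and Pax3 with 28.6 ± 0.43. Zeb2 came next with 13.6 CPM per kb, then Tfe3 with 6.20, Tfeb with 3.15 and Sox9 with 0.926. The 2 libraries of each factor did not overlap with those of its neighbours in that order. With TG in the KO cells the order was different: Sox10 was at 76.6 and 73.2 CPM per kb, Pax3 at 31.6 and 31.1, and Mitf at 30.0 and 31.0. Pax3 and Mitf, next to each other there, differed by about as much as their libraries did. Merged exons are longer than any one transcript, so these levels per kb are approximate.

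TG for 8 hours moved all of the measurable factors in control melanoma, but in different directions. Mitf, Sox10, Tfap2a, Tfeb and Zeb2 fell, and Pax3, Tfe3, Sox9 and Zeb1 rose. All 9 tested factors were called (4 higher, 5 lower) at an adjusted p below 0.05 (edgeR, quasi-likelihood, Benjamini-Hochberg over the tested genes). The background was high: 71.8% of the 12540 tested genes were called in the same comparison and the members' share can be read only against that. Zeb1 passed the filter only through the groups with TG, where it was high, so its call adds nothing to the count.

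Mitf, the lineage factor, had 500.2 and 499.8 CPM in control cells with vehicle and 343.5 and 343.4 with TG. In the KO it had 460.0 and 448.6 CPM with vehicle and 185.8 and 192.0 with TG. The 4 groups did not overlap, and the KO cells with TG were lowest. Mitf fell 1.46-fold with TG in control cells (log2 change -0.54 ± 0.03 SE, adjusted p = 3.2e-18) and 2.40-fold in the KO (-1.27 ± 0.04, adjusted p = 1.9e-30).

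In KO cells all 9 tested factors were again called with TG (5 higher, 4 lower), where 70.3% of tested genes were called. Zeb1, which passed the filter only through the groups with TG, adds nothing to this count either. The test of the difference between the KO and the control response called 5 of 9 factors, against 13.1% of all tested genes. It called 3 of 9 without replicate 1 of KO vehicle, without replicate 1 of KO TG, and in DESeq2, which gave 3 factors no adjusted p. For Mitf that difference was -0.72 ± 0.05 on the log2 scale (adjusted p = 1.9e-14). The call held under each of the 14 alternative settings. In bulk RNA, fewer cells with a transcript and less of it per cell cannot be told apart. KO cells had less Mitf with vehicle, by 0.14 ± 0.03 on the log2 scale (adjusted p = 0.0013).

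Sox10, which acts on the Mitf promoter, ran closely with Mitf. The gene lies on chromosome 15 of GRCm38, from 79154908 to 79165240 on the minus strand. It had 568.7 and 592.0 CPM in control cells with vehicle and 377.5 and 397.5 with TG. KO cells had 486.0 and 492.2 CPM with vehicle and 233.7 and 223.3 with TG. No 2 groups overlapped, and the order of the groups was that of Mitf. The TG response was -0.58 ± 0.03 in control cells (adjusted p = 7.0e-19) and -1.10 ± 0.04 in the KO (adjusted p = 6.8e-28). These responses differed by -0.52 ± 0.05 (adjusted p = 3.7e-10), which was called under all 14 alternatives.

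Among 8744 genes with a mean of at least 10 CPM, Sox10 had the pattern over the 8 melanoma libraries with the smallest root-mean-square difference of mean-centred log2 CPM from that of Mitf, 0.0726. The next 4 genes were St3gal1 (0.0945), Etv5 (0.107), Fam53b (0.118) and Mgat4a (0.126). For Sox10 the order was Mitf, Fam53b (0.0791), Plekhg1 (0.0906), Tyr (0.0965) and Mgat4a (0.105). Tyr, the gene of tyrosinase, went from 213 to 154 CPM with TG in control cells and from 168 to 91.2 in the KO. Ranking by Pearson's correlation instead shared 2 of 5 genes for Mitf and 1 of 5 for Sox10. By that measure Sox10 was behind Atp11a, Cntfr and Fam53b for Mitf, and Mitf was not among the 5 nearest to Sox10, so first place in both lists holds for the root-mean-square difference alone. Within the factors, Tfap2a stood at rank 66 for Mitf and 32 for Sox10. The 8 libraries share 4 groups, so these values describe group means more than independent points.

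Tfap2a encodes an AP-2 factor of neural crest and skin and lies on chromosome 13, from 40715302 to 40738376 on the minus strand. It had 163.6 and 185.0 CPM in control cells with vehicle and 104.7 and 107.2 with TG. In KO cells it had 132.5 and 124.4 CPM with vehicle and 80.6 and 76.0 with TG. Both TG groups lay below both vehicle groups, and both KO groups below their controls. Its TG response was -0.71 ± 0.05 in control cells (adjusted p = 4.7e-14) and -0.72 ± 0.06 in the KO (adjusted p = 2.7e-13). The difference between these responses, -0.00 ± 0.08, was not called (adjusted p = 0.99). 3 antisense genes overlap Tfap2a exons by 73 to 380 bases. Without a stated strand their reads cannot be told from its own.

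Pax3, the paired-box factor of the neural crest (chromosome 1, 78101267 to 78197134, minus strand), went the other way. Control cells had 175.0 and 178.8 CPM with vehicle and 218.8 and 227.6 with TG. KO cells had 148.7 and 148.5 CPM with vehicle and 195.3 and 192.3 with TG. TG libraries were higher than vehicle libraries in each genotype, without overlap, and KO libraries were lower than control libraries with either treatment. The rise was 0.34 ± 0.04 in control cells (adjusted p = 4.9e-10) and 0.38 ± 0.04 in the KO (adjusted p = 4.4e-11), and the difference of 0.05 ± 0.06 was not called (adjusted p = 0.67).

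**Figure D2:**
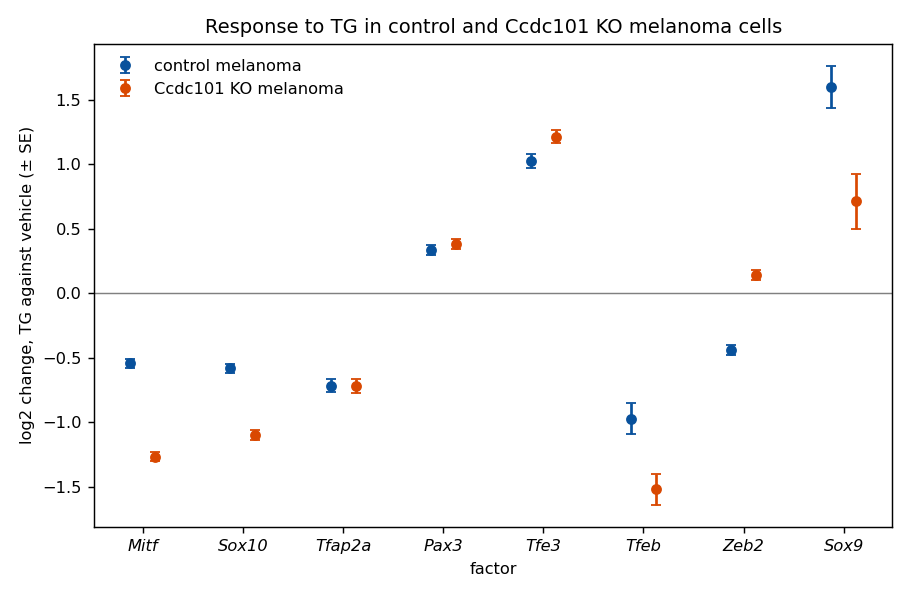
log2 change with TG against vehicle (y axis) for 8 of the factors (x axis) in control (blue) and Ccdc101 KO (orange) melanoma cells, with bars of 1 SE from edgeR and n = 2 libraries per group; Zeb1 is left out because its vehicle groups hold 3 and 4 counts. Mitf and Sox10 lie lower in the KO, Tfap2a and Pax3 overlap within their bars, and Zeb2 lies below 0 in control cells and above 0 in the KO.

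Of the 3 relatives of Mitf, Tfe3 (chromosome X, 7762560 to 7775202, plus strand) rose with TG in both genotypes. It had 55.2 and 59.6 CPM in control cells with vehicle and 119.0 and 114.1 with TG. KO cells had 51.7 and 54.9 CPM with vehicle and 123.3 and 123.8 with TG. The vehicle groups stood apart from the TG groups, with no overlap, while the 2 genotypes were close under each treatment. Tfe3 rose 2.04-fold in control cells (1.03 ± 0.05, adjusted p = 5.0e-21) and 2.32-fold in the KO (1.21 ± 0.05, adjusted p = 2.9e-23). The difference of 0.19 ± 0.08 was not called (adjusted p = 0.10). It was called with no filter on low counts (adjusted p = 0.027) and without replicate 1 of control vehicle (adjusted p = 0.049).

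Tfeb (chromosome 17, 47737030 to 47792419, plus strand) moved opposite to Tfe3. Control cells had 18.4 and 17.4 CPM of Tfeb with vehicle and 10.0 and 8.28 with TG, and KO cells 22.9 and 21.2 with vehicle and 7.46 and 7.90 with TG. Vehicle and TG libraries did not overlap. The fall was 0.97 ± 0.12 on the log2 scale in control cells (adjusted p = 2.5e-09) and 1.52 ± 0.12 in the KO (adjusted p = 7.0e-15). The KO response was lower by 0.55 ± 0.18 (adjusted p = 0.033). This call was lost with no filter on low counts (adjusted p = 0.067), and without any 1 of 5 libraries: replicate 2 of control vehicle (0.082), replicate 1 of control TG (0.24), replicate 1 of KO vehicle (0.13), and replicates 1 and 2 of KO TG (0.12 and 0.077). DESeq2 gave it no adjusted p.

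Tfec, the fourth family member, which is known mainly from macrophages and osteoclasts, had 2 counts in the 8 melanoma libraries together. Both came from control cells with TG. In the 12 T cell libraries it had no count, which allows up to 0.0196 CPM over those libraries (3 counts, counting error only). No comparison was made for Tfec.

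Counted per kb of merged exons, Mitf made up less of the family mRNA with TG in both genotypes, and least in KO cells with TG. Mitf made up 89.8% and 89.5% of the sum of Mitf, Tfe3 and Tfeb in control cells with vehicle and 79.1% and 80.1% with TG. In KO cells its share was 88.5% and 88.2% with vehicle and 67.2% and 67.7% with TG. Tfe3 made up 6.63% and 7.14% in control vehicle and 18.3% and 17.8% in control TG. Its share in the KO was 6.66% and 7.23% with vehicle and 29.8% and 29.2% with TG. Mitf was thus 13.6 and 12.5 times as abundant as Tfe3 per kb in control cells with vehicle and 2.25 and 2.32 times in KO cells with TG. By this measure Mitf was the most abundant of the family in all 8 melanoma libraries. Merged exons hold 6196 bases for Mitf and 9261 for Tfe3. They may exceed a transcript by a different amount in each gene, so these shares and ratios are approximate. In CPM, without lengths, KO cells with TG had 185.8 and 192.0 of Mitf and 123.3 and 123.8 of Tfe3. The summed level of the family was 89.9 and 90.2 CPM per kb in control vehicle and 44.6 and 45.8 in KO cells with TG.

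**Figure D3:**
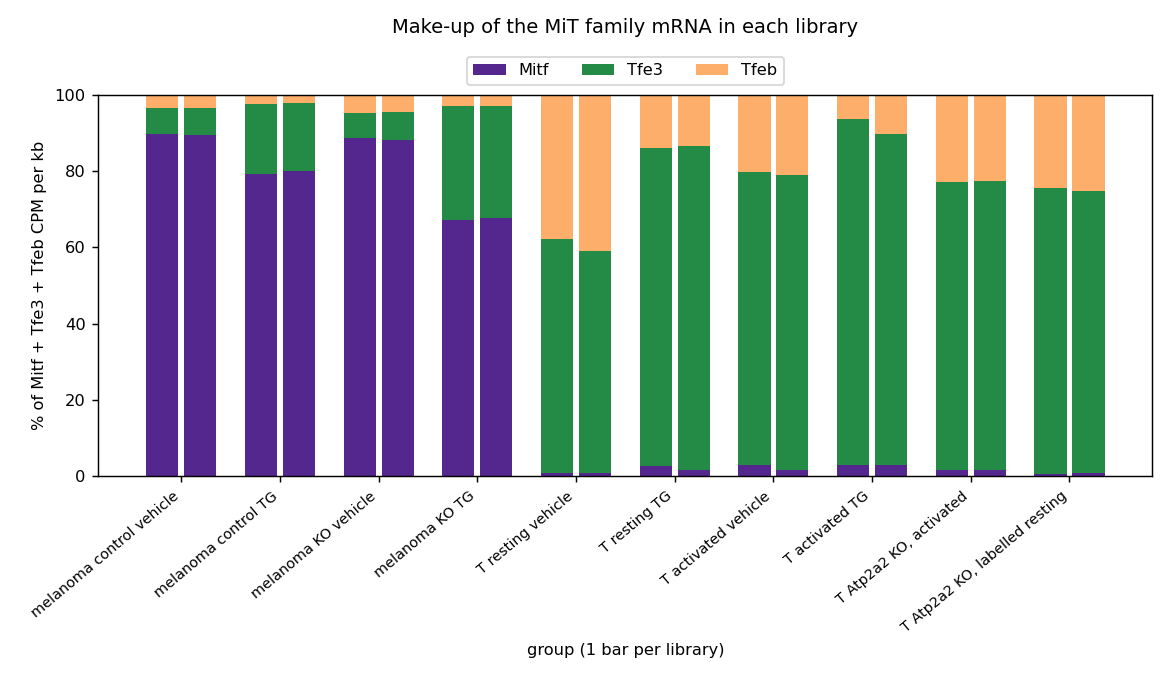
Share (y axis, %) of Mitf, Tfe3 and Tfeb in their summed CPM per kb of merged exons, with 1 stacked bar per library in the 10 groups (x axis). Mitf makes up most of each melanoma bar and at most 3.10% of a T cell bar, where Tfe3 leads, and the Tfe3 part is larger with TG in both cell types.

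The neural crest factors outside the family split further. Sox9 (chromosome 11, 112782224 to 112787760, plus strand) had 3.53 and 4.13 CPM in control cells with vehicle and 11.3 and 11.8 with TG. KO cells had 2.97 and 2.98 CPM with vehicle and 4.44 and 5.24 with TG. Control cells with TG were the highest group and overlapped with no other. Sox9 rose 3.03-fold in control cells (1.60 ± 0.16, adjusted p = 1.2e-11) and 1.64-fold in the KO (0.71 ± 0.21, adjusted p = 0.0028). The second call was lost without replicate 2 of KO cells with TG (adjusted p = 0.059). The rise in the KO was smaller by 0.89 ± 0.27 (adjusted p = 0.024), a call lost without any 1 of 5 libraries: replicate 1 of control vehicle (adjusted p = 0.11), replicate 2 of control TG (0.063), replicates 1 and 2 of KO vehicle (0.10 and 0.075) and replicate 1 of KO TG (0.099). DESeq2 gave it no adjusted p. Under TG, Sox9 was lower in KO than in control cells by 1.24 ± 0.16 (adjusted p = 5.5e-08).

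Zeb2 fell with TG in control cells and not in the KO. The gene lies on chromosome 2, from 44983632 to 45117395 on the minus strand. It had 268.7 and 272.1 CPM in control vehicle and 198.3 and 200.6 in control TG. KO cells had 257.3 and 248.2 CPM with vehicle and 288.2 and 270.4 with TG. Control cells with TG were the lowest group, and KO cells with TG overlapped with control cells with vehicle. The control response was -0.44 ± 0.04 (adjusted p = 3.0e-13), while the KO response was 0.14 ± 0.04 (adjusted p = 0.0011) and lost its call without replicate 1 of KO cells with TG (0.10, adjusted p = 0.059). The 2 responses differed by 0.58 ± 0.05 (adjusted p = 2.0e-10), which was called in all 14 alternatives. Zeb2os, an antisense gene with 412 counts against 35108 of Zeb2 over the series, shares 653 exon bases with it.

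Zeb1, the other ZEB factor, was near the limit of detection with vehicle. It had 0 and 0.225 CPM in control vehicle, from 3 counts, and 2.14 and 2.19 CPM in control TG, from 45 counts. KO cells had 0.234 and 0.0876 CPM with vehicle, from 4 counts, and 1.95 and 2.14 with TG, from 51 counts. The TG libraries were above the vehicle libraries in both genotypes. The ratio of TG to vehicle was 21.4 (95% exact binomial interval 6.88 to 108) in control cells and 12.4 (4.57 to 47.4) in the KO, covering counting error only. KO and control responses were not called different (adjusted p = 0.75). Gm10125, with 30 counts over the series, shares 198 exon bases with Zeb1 on the other strand. The 8 CD8 T cell markers, in cells that express Zeb1 at 75.5 to 132 CPM, summed to 3.24 to 4.08 CPM in control vehicle and 4.65 to 4.98 in control TG. They summed to 2.68 to 4.81 CPM in KO vehicle and 6.71 to 7.70 in KO TG, against 3810 to 9160 in T cells, and their part in the Zeb1 level was not tested.

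Without TG, KO and control melanoma cells differed in Sox10, Pax3, Tfap2a, Mitf and Tfeb. With vehicle, 5 of 9 tested factors were called (1 higher, 4 lower), where 25.7% of tested genes were called. Sox10, Pax3, Tfap2a and Mitf were lower in the KO, with log2 changes of -0.25 ± 0.03 (adjusted p = 2.7e-07), -0.25 ± 0.04 (5.5e-06), -0.44 ± 0.05 (2.9e-08) and -0.14 ± 0.03 (0.0013). Tfeb was higher by 0.30 ± 0.10 (adjusted p = 0.018), and this call was lost in DESeq2 (adjusted p = 0.37) and without any 1 of 3 libraries, both of control vehicle and replicate 1 of KO vehicle. Zeb2 was at -0.10 ± 0.04 (adjusted p = 0.056), and this was called with scaling by relative log expression (adjusted p = 0.024), with only the compared groups fitted (0.048) and without replicate 1 of KO vehicle (0.033).

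With TG, 6 of 9 tested factors differed between KO and control (1 higher, 5 lower), where 31.5% of tested genes did. Mitf was lower in the KO by 0.86 ± 0.04 on the log2 scale (adjusted p = 2.7e-22) and Sox10 by 0.76 ± 0.04 (adjusted p = 2.7e-20). Tfap2a differed by -0.44 ± 0.06 (adjusted p = 4.0e-07) and Pax3 by -0.20 ± 0.04 (adjusted p = 7.8e-05). Zeb2 was higher by 0.48 ± 0.04 (adjusted p = 4.4e-13). Tfe3 (0.08 ± 0.05, adjusted p = 0.19), Tfeb (-0.25 ± 0.15, 0.22) and Zeb1 (0.89) were not called. The comparisons with control vehicle or with any other group share libraries, so their values are given side by side and are not independent of each other.

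The genes these factors are known to control were read from lists chosen with earlier results of these data known. Their counts stand against the share of all tested genes called, 71.8% with TG in control cells (4476 higher, 4526 lower), 70.3% with TG in the KO (4271 higher, 4546 lower), 25.7% for the KO with vehicle and 31.5% for the KO with TG. Of 17 tested pigment targets of MITF, 13 were lower and 3 higher with TG in control cells, and 15 were lower and 1 higher in the KO. The median log2 change was -0.47 and -0.64, against -0.00 and -0.02 over all tested genes. KO cells had 14 of 17 lower and none higher with vehicle, and 16 of 17 lower and none higher with TG. Mc1r, the melanocortin receptor that signals to Mitf through cAMP, went from 198 ± 2.4 to 54.1 ± 2.8 CPM (SD, n = 2) in control cells and from 153 ± 0.98 to 35.0 ± 0.28 in the KO. Mlph, a melanosome transport adaptor, fell by 1.28 ± 0.04 and 1.64 ± 0.04 on the log2 scale (adjusted p = 2.6e-30 and 6.3e-34), Slc45a2, a melanosome transporter, by 1.23 and 1.48, and Mlana by 1.10 and 1.02. For 7 of the 17 the response in KO cells was lower than in control cells, and for none was it higher. That is 41.2% of the list called, against 13.1% of all tested genes. Gpnmb, a melanosome and lysosome protein, rose by 0.24 ± 0.03 in control cells (adjusted p = 4.4e-11) and fell by 0.18 ± 0.03 in the KO (adjusted p = 6.8e-08).

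Of the 12 pigment genes with a RefSeq promoter entry, 7 held CATGTG in the 250 bases before a start. These were Dct, Mc1r, Oca2, Slc24a5, Trpm1, Tyr and Tyrp1. By starts, 50% of 14 windows held it, against 12.3% of all windows. CACGTG was in 28.6% of these windows, against 6.02% of all. MITF reads such sequences and the genes were listed as its known targets, so these shares come with the choice of list and are not a test.

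MITF targets outside pigment were also mostly lower with TG. Of 21 tested genes 14 were lower and 5 higher in control cells, and 14 lower and 4 higher in the KO. That is 90.5% and 85.7% of the list called, against 71.8% and 70.3% of all genes, with a median log2 change of -0.51 and -0.59. The fall was not particular to melanoma. In control T cells, where Mitf was near the floor, TG gave 12 lower and 5 higher at rest, and 16 lower and 3 higher after activation. The medians there were -0.62 and -0.38, with 81.0% and 90.5% of the list called, against 69.2% and 65.0% of all genes. Cdk2, a cell cycle kinase gene that lies next to Pmel, fell from 365 ± 8.2 to 172 ± 0.095 CPM in control cells and from 236 ± 0.64 to 73.4 ± 2.2 in the KO, a response lower by 0.60 (adjusted p = 4.0e-10). Met, the receptor of hepatocyte growth factor, fell by 0.42 ± 0.03 in control cells (adjusted p = 4.0e-15) and by 0.97 ± 0.03 in the KO (adjusted p = 1.1e-26). Bcl2, a survival gene, rose in both, from 35.1 to 79.2 CPM and from 46.4 to 73.2 CPM. Hif1a rose by 0.09 (adjusted p = 0.018) and 0.08 (adjusted p = 0.047). The KO effect went both ways in this list. With vehicle 5 genes were higher and 5 lower in the KO, 47.6% of the list against 25.7% of all genes. With TG 2 were higher and 6 lower, 38.1% against 31.5%. The TG response was lower in the KO for 7 and higher for 4, 52.4% against 13.1%. The median log2 changes were -0.035, -0.045 and -0.017.

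The SOX10 list, which holds Mitf, Tyr, Dct and myelin genes, had 9 of 10 tested genes lower and 1 higher with TG in both genotypes, where 71.8% and 70.3% of all genes were called. Its median log2 change was -0.79 and -0.87. The KO effect went both ways in this list, with 5 higher and 4 lower with vehicle and 6 higher and 4 lower with TG. Gas7 was at 163 ± 10 CPM in control vehicle and 275 ± 6.2 in KO vehicle, and at 29.8 ± 0.90 and 46.4 ± 1.7 with TG. Mbp, the myelin basic protein gene, was at 631 ± 9.7 and 832 ± 6.5 with vehicle and at 169 ± 2.5 and 275 ± 3.8 with TG. Both were higher in the KO (Gas7 adjusted p = 5.2e-18 and 2.6e-09, Mbp 1.4e-13 and 1.8e-19), while Sox10 itself was lower.

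**Figure D4:**
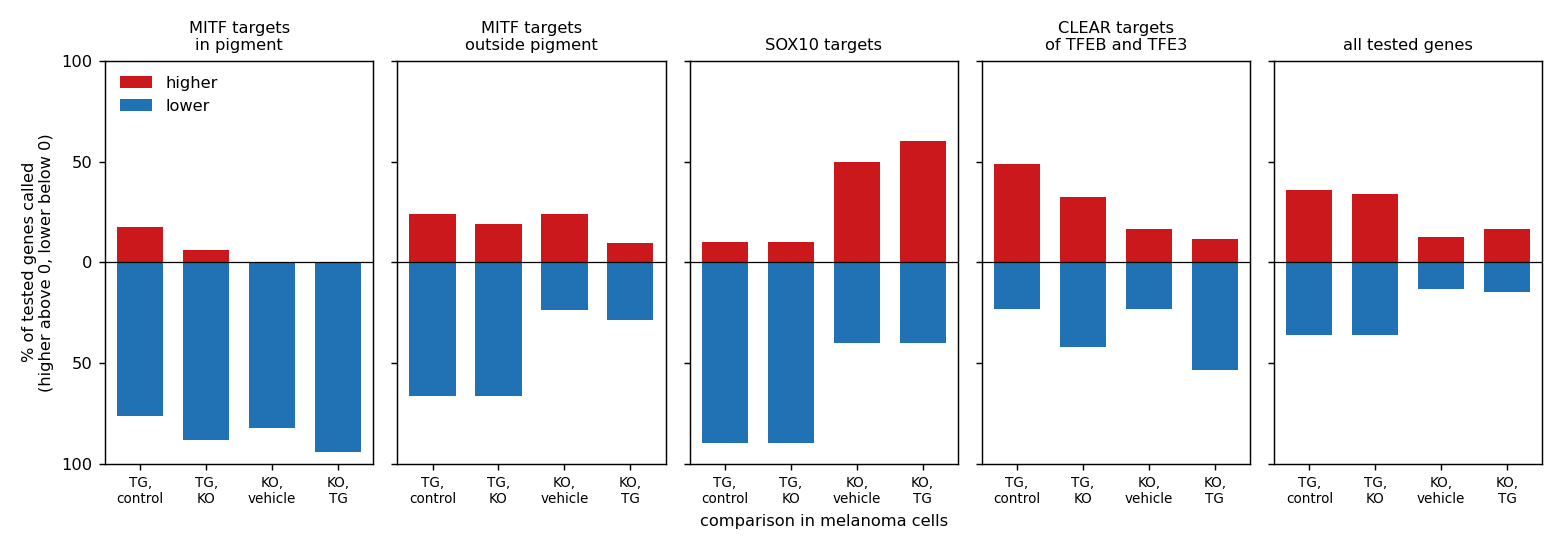
Share (y axis, %) of the tested genes of 4 lists, and of all tested genes in the last panel, that were called higher (red, above 0) or lower (blue, below 0) in 4 melanoma comparisons (x axis). Pigment targets of MITF have more lower than higher calls in all 4, SOX10 targets have mostly lower calls with TG and calls in both directions between KO and control, and CLEAR targets have more higher than lower calls with TG in control cells and more lower than higher calls between KO and control with TG.

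Among 29 tested signals and factors upstream of Mitf, 15 rose and 10 fell with TG in control cells, and 14 rose and 11 fell in the KO. The called share was 86.2% in both, against 71.8% and 70.3% of all genes, and the median log2 change was 0.23 and 0.16. Atf4, the stress factor, rose from 401 ± 11 to 1442 ± 0.53 CPM in control cells and from 362 ± 9.6 to 1443 ± 11 in the KO, and with TG it did not differ between genotypes (0.00 ± 0.03, adjusted p = 0.99). Crem, a cAMP-response factor, rose from 10.6 to 28.7 CPM in control cells. Kit, the stem cell factor receptor, fell from 5.95 ± 0.41 to 1.25 ± 0.018 CPM in control cells and from 3.48 ± 0.17 to 0.370 ± 0.11 in the KO.

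Other factors of melanocyte or melanoma state, 33 tested, had 12 higher and 17 lower with TG in control cells and 8 higher and 20 lower in the KO. The called share was 87.9% and 84.8%, against 71.8% and 70.3% of all genes, and the median log2 change was -0.19 and -0.40. Id3, an inhibitor of basic helix-loop-helix factors, went from 19.9 ± 0.0072 to 106 ± 0.038 CPM in control cells and from 16.5 ± 2.9 to 43.6 ± 3.4 in the KO. Its response was lower in the KO by 1.03 (adjusted p = 5.3e-08), and that of Fosl2, an AP-1 factor, by 1.14 (adjusted p = 1.4e-09). Of 17 tested markers of a low MITF or mesenchymal state, 7 were higher and 1 lower in the KO with vehicle, and 11 higher and 1 lower with TG. The called share was 47.1% and 70.6%, against 25.7% and 31.5% of all genes, and the median log2 change was 0.54 and 0.77. The list also holds Cdh1 and Cdh3, E-cadherin and P-cadherin, which are not mesenchymal genes, so these counts do not give a move toward that state. Axl, a receptor kinase, was at 13.7 ± 0.77 CPM in control vehicle and 38.5 ± 0.20 in KO vehicle (1.49 ± 0.09, adjusted p = 1.7e-17). Ngfr, the low-affinity nerve growth factor receptor, was at 4.79 ± 0.24 and 16.4 ± 0.83 (1.78 ± 0.14, adjusted p = 3.4e-13). With TG, 6 of these markers rose and 4 fell in control cells, and 8 rose and 7 fell in the KO, 58.8% and 88.2% of the list against 71.8% and 70.3% of all genes. Among called markers with at least 10 CPM in the higher group, the largest changes with TG were falls, of Thbs1, a matrix protein (by 2.20 in control cells and 2.14 in the KO), Vim, an intermediate filament gene (by 1.11 and 1.09), and Cdh2, N-cadherin (by 1.01 and 0.87). Ngfr was not called with TG in control cells (0.02 ± 0.19, adjusted p = 0.92).

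CLEAR targets, the lysosome and autophagy genes of TFEB and TFE3, were called in both directions. In control cells 21 of 43 tested genes rose and 10 fell, and in the KO 14 rose and 18 fell. The called share of 72.1% and 74.4% was close to the 71.8% and 70.3% of all genes. Their median log2 change was 0.10 and 0.04, against -0.00 and -0.02 for all genes. With TG, 23 of 43 were lower in the KO than in control cells and 5 higher, 65.1% of the list against 31.5% of all genes. The TG response was lower in the KO for 16 and higher for 2, 41.9% of the list against 13.1% of all genes. Sqstm1, the autophagy receptor p62, rose from 751 ± 11 to 3202 ± 7.9 CPM in control cells and from 817 ± 14 to 3375 ± 62 in the KO. Fnip2, a partner of folliculin, was at 80.6 and 85.6 CPM without and with TG in control cells and at 80.9 ± 4.8 and 52.3 ± 2.2 in the KO, a response lower by 0.71 (adjusted p = 9.0e-09). Rragd, a Rag GTPase gene that MITF and TFEB are known to drive, was at 53.8 ± 3.0 and 54.0 ± 0.92 CPM in control cells and at 31.1 ± 0.073 and 24.0 ± 1.7 in the KO. The KO difference was -0.79 ± 0.07 with vehicle (adjusted p = 4.9e-12) and -1.16 ± 0.08 with TG (adjusted p = 5.4e-16).

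CACGTG was held by 37.8% of the 37 promoter windows of CLEAR targets, against 6.02% of all windows, and TCACGTGA by 13.5%, against 0.785%. The CLEAR list is named after this motif, so these shares come with the choice of list and are not a test. Of 37 genes that control TFEB and TFE3, 16 rose and 11 fell with TG in control cells and 13 rose and 15 fell in the KO. The called share, 73.0% and 75.7%, was close to that of all genes, 71.8% and 70.3%. Fnip1 rose by 0.73 ± 0.05 in control cells (adjusted p = 2.0e-17) and 0.45 ± 0.05 in the KO (adjusted p = 4.6e-11). Eif2ak3, the stress kinase PERK, rose by 1.52 and 1.55. Akt1, a growth factor kinase, fell by 1.45 and 1.25, and Ywhah, a 14-3-3 protein gene, by 1.10 and 0.97.

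In T cells Tfe3 was the main family member, and TG moved it and Tfeb the same way as in melanoma. In resting control cells Tfe3 had 38.6 and 35.6 CPM with vehicle and 62.2 and 60.8 with TG, on the scale of the T cell libraries. In activated control cells it had 41.9 and 42.8 CPM with vehicle and 68.4 and 64.0 with TG. Every library with TG was higher than every library with vehicle. Both tested members, Tfe3 and Tfeb, were called in each of these comparisons, where 69.2% of tested genes were called in resting and 65.0% in activated cells. Tfe3 rose by 0.73 ± 0.07 at rest (adjusted p = 1.5e-14) and 0.65 ± 0.06 after activation (adjusted p = 5.2e-14).

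Tfeb had 14.6 and 15.4 CPM at rest with vehicle and 6.47 and 5.85 with TG. Activated cells had 6.76 and 7.19 CPM with vehicle and 2.98 and 4.67 with TG. The TG libraries of each state lay below its vehicle libraries, and activation alone brought Tfeb to about the level of resting cells with TG. The TG response was -1.28 ± 0.14 at rest (adjusted p = 9.7e-12) and -0.84 ± 0.18 after activation (adjusted p = 3.7e-05).

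Activation with vehicle called both tested members, where 74.4% of tested genes were called. Tfeb fell by 1.11 ± 0.13 (adjusted p = 6.9e-11), and Tfe3 rose by 0.18 ± 0.07 (adjusted p = 0.014), a call lost in DESeq2 (adjusted p = 0.069) and without replicate 2 of resting vehicle (0.15) or of activated vehicle (0.052). With TG, activation called 1 of 2 members, where 63.8% of tested genes were called. Tfeb fell there by 0.67 ± 0.19 (adjusted p = 0.0016), a call lost without replicate 1 of activated TG (adjusted p = 0.12), and Tfe3 was at 0.10 ± 0.06 (adjusted p = 0.12). Without replicate 2 of activated TG, Tfe3 was called (adjusted p = 0.042).

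The TG response was not called different between activated and resting cells for either member by edgeR, and neither passed an unadjusted p of 0.05 or was called by DESeq2, where edgeR called 51.9% of tested genes. The difference was -0.08 ± 0.09 for Tfe3 (adjusted p = 0.48) and 0.43 ± 0.23 for Tfeb (adjusted p = 0.12). Without replicate 1 of activated TG, that of Tfeb was 0.71 (adjusted p = 0.019).

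In activated T cells with the Atp2a2 KO neither member was called. Atp2a2 itself, the targeted gene, was at 435 ± 1.2 CPM there and at 676 ± 16 in activated control cells (-0.63 ± 0.03, adjusted p = 9.2e-23). Tfe3 had 40.7 and 43.4 CPM and Tfeb 7.53 and 7.95, near the activated control values given above. edgeR called 0 of 2 members, 0 had an unadjusted p below 0.05 and DESeq2 called 0, where edgeR called 37.1% of tested genes. The differences from activated control cells were -0.01 ± 0.06 for Tfe3 (adjusted p = 0.90) and 0.15 ± 0.15 for Tfeb (adjusted p = 0.46).

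The libraries labelled resting Atp2a2 KO stood nearer to activated than to resting control cells. Il2ra, the activation marker CD25, was at 4708 and 4753 CPM in them, at 1430 and 1382 in resting control and at 5761 and 5886 in activated control cells, all with vehicle. Atp2a2, their targeted gene, was at 454 ± 2.2 CPM, higher than the 225 ± 0.38 of resting control cells (1.01 ± 0.04, adjusted p = 9.9e-32) and lower than the level in activated control cells. Their Tfe3 was 40.8 and 40.4 CPM and their Tfeb 8.18 and 8.42. Against resting control cells 1 of 2 members was called, where 69.6% of tested genes were. Tfeb was lower by 0.85 ± 0.14 (adjusted p = 2.9e-07) and Tfe3 was at 0.13 ± 0.07 (adjusted p = 0.13). In this comparison the genotype and the nearness to activated cells cannot be told apart.

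**Figure D5:**
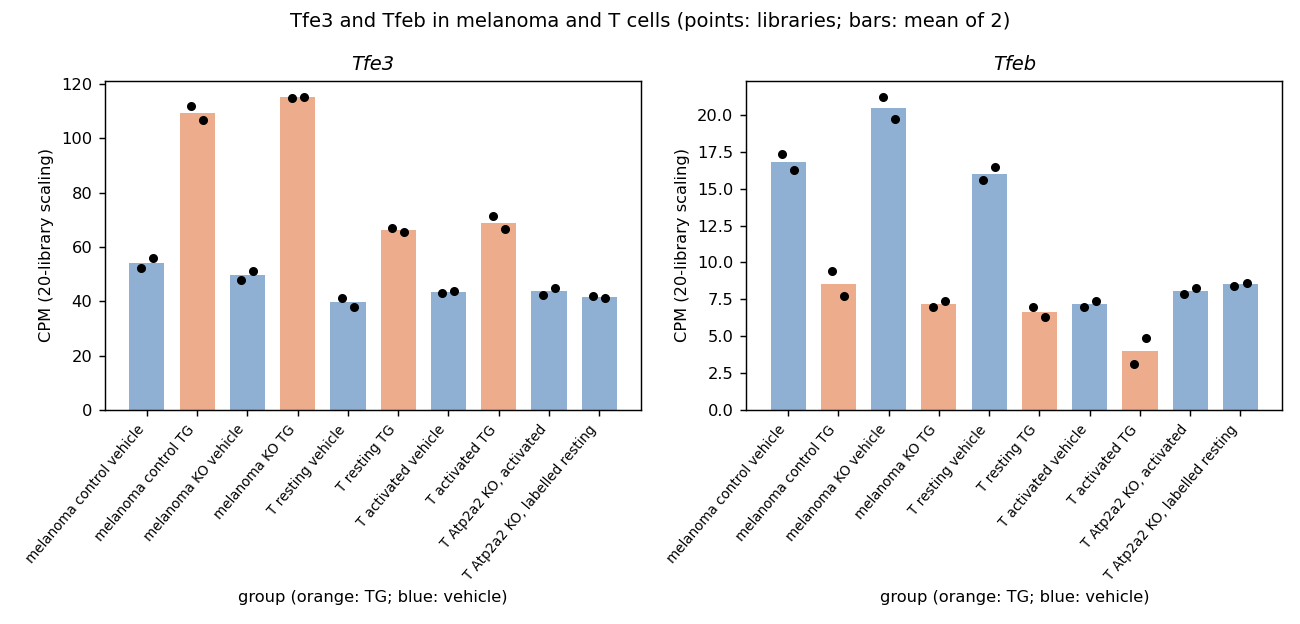
CPM (y axis, linear, from 0) of Tfe3 and Tfeb in the 10 groups (x axis), scaled over all 20 libraries, with 1 point per library and bars at the mean of 2, orange for TG and blue for vehicle. Tfe3 is higher and Tfeb lower with TG in every matched pair of groups, and Tfeb is about as low in activated T cells with vehicle as in resting cells with TG.

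On the scale of all 20 libraries, Tfe3 was at 54.0 ± 2.7 CPM in control melanoma and 39.6 ± 2.2 in resting T cells with vehicle, and at 109 ± 3.7 and 66.2 ± 1.2 with TG. Its TG response was larger in melanoma than in resting T cells by 0.28 ± 0.09 (adjusted p = 0.0042), with 1 of 2 members called, where 47.4% of tested genes were called. That call was lost without replicate 1 of resting vehicle (adjusted p = 0.079) and in DESeq2 (adjusted p = 0.066). It was larger than in activated T cells by 0.35 ± 0.08 (adjusted p = 0.00015), again with 1 of 2 members called, where 43.4% of tested genes were called. For Tfeb the difference was 0.29 ± 0.19 against resting (adjusted p = 0.24) and -0.15 ± 0.22 against activated cells (adjusted p = 0.66). Cell type, culture medium and library group cannot be told apart in these differences.

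The share of Tfe3 in the family, per kb, was 61.2% and 58.1% in resting T cells with vehicle and 83.2% and 84.9% with TG. In activated cells it was 76.8% and 77.2% with vehicle and 90.5% and 86.6% with TG. Mitf was at 0.197 to 1.60 CPM in the T cell libraries, with 124 counts in all 12. CLEAR targets in resting T cells had 10 of 43 tested genes higher and 19 lower with TG, and in activated cells 19 higher and 10 lower. The called share was 67.4% in both states, close to the 69.2% and 65.0% of all genes. Sqstm1 rose in both, from 220 ± 0.20 to 714 ± 33 CPM at rest and from 178 ± 2.4 to 923 ± 9.9 after activation. Flcn, the gene of folliculin, which keeps TFE3 and TFEB in the cytoplasm, rose by 0.98 ± 0.06 at rest (adjusted p = 3.4e-20) and 0.51 ± 0.06 after activation (adjusted p = 5.2e-10), and was not called with TG in control melanoma (-0.07 ± 0.05, adjusted p = 0.15). In KO melanoma Flcn fell by 0.16 ± 0.05 with TG (adjusted p = 0.0043).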

How the data were processed

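The authors deposited gene counts of total RNA (Trizol, standard Illumina libraries, per the labels' protocols). STAR 2.6.0c, HTSeq and GRCm38/mm10 are named in the submitters' processing notes. Strand setting and annotation are not given in the sources used here. Ensembl identifiers were named from GENCODE M21 (46005 of 46603, the rest holding 0.0759% of counts). The members and gene lists were chosen with earlier results of these data known.

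Counts were fitted in R 4.3.3 with edgeR 4.0.16 (TMM scaling, filterByExpr, robust quasi-likelihood) and limma 3.58.1 loaded. There was 1 fit for the 8 melanoma libraries (12540 genes), 1 for the 12 T cell libraries (13432) and 1 for all 20 (14824), by group alone. Standard errors are the log2 change over the square root of F. The pipeline was tested on simulated data. The fits were repeated with each library left out, with a replicate term, on the compared groups alone, without the filter, with a minimum of 5 CPM in 2 libraries, with scaling by relative log expression, and in DESeq2 1.42.0.

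Besides the members, each list gives up to 4 called genes per comparison with the largest change (the higher group at 10 CPM or more), and a fixed panel gives Sgf29, Atf4, Mc1r, Kit, Tyr, Met, Cdk2, Bcl2, Hif1a, Gpnmb, Sqstm1, Flcn, Fnip1, Fnip2, Rragd, Axl, Ngfr and others. Il2ra, outside this rule, was added to check activation. RefSeq promoters (GRCm38.p6) were read for 6 of 10 members, with members on chromosome 18, that is Zeb1, left out beforehand.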

Additional observations from a re-analysis of the deposited data

Results flagged for a closer look

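5 factors responded to TG differently in Ccdc101 KO and control melanoma by the test of the difference itself, in edgeR with adjustment over all tested genes. The KO response minus the control response was -0.72 on the log2 scale for Mitf, -0.52 for Sox10, -0.55 for Tfeb, -0.89 for Sox9 and 0.58 for Zeb2. The calls of Mitf, Sox10 and Zeb2 held in all 14 alternatives, while that of Tfeb was lost in 6 of 13 and that of Sox9 in 5 of 13. DESeq2 called 3 factors and gave Tfeb and Sox9 no adjusted p. Zeb2 fell in control cells and rose slightly in the KO, by 0.14, whereas the other 4 kept one direction in both. The call of that rise was lost without replicate 1 of KO cells with TG (0.10), so a reversal of direction is less certain than the difference. Tfe3 responded more in control melanoma than in control T cells, by 0.28 against resting and 0.35 against activated cells. The call against resting cells was lost in DESeq2 (adjusted p = 0.066) and without replicate 1 of resting vehicle (0.22 on the log2 scale). Cell type, culture medium and library group cannot be told apart in either difference. Groups of 2 libraries are too small to test for an outlying library.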

How the results depend on the processing

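Of 693 alternative values for the members, 649 kept their direction and side of the threshold, 23 lost a call, 7 gained one and 14 changed sign, each of a result that was not called. DESeq2 called 1447 genes for Ccdc101 KO with vehicle, 2013 with TG, 702 for the difference of the TG response and 2977 for Atp2a2 KO in activated T cells. It called 3 factors for that difference (Tfeb, Sox9 and Zeb1 had no adjusted p), 1 for activation with vehicle and 0 for melanoma minus resting T cells. Its calls were 34.7% higher for Ccdc101 KO with vehicle (48.2% in edgeR) and 69.4% for the difference (54.6%); with no filter this share was 70.5%, and 64.4% for the KO with TG (52.5%).

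With 1 library left out, Ccdc101 KO with TG called 2615 to 3408 genes and the difference 1090 to 1565 genes and 3 to 5 factors. Activation called 1 to 2 members with vehicle and 0 to 2 with TG, its difference of the TG response 0 to 1, and melanoma minus resting T cells 0 to 1. The sign changed for the Tfap2a difference under relative log expression scaling (0.0111), no filter (0.0481), DESeq2 (0.0256) and without 1 library (-0.0835 to 0.0969). It changed for Tfe3 in Atp2a2 KO activated T cells with a filter of 5 CPM (0.0095) and without 1 library (-0.0567 to 0.0373). Leaving out 1 library also gave -0.444 to 4.10 for Zeb1 in the KO with vehicle, -4.18 to 0.363 for its difference, and -0.428 to 0.218 for the Tfeb difference between melanoma and activated T cells.

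Replicate numbers did not pair the libraries (correlations of deviations -0.0749 to 0.0332 in melanoma, -0.109 to 0.109 in T cells). With the replicate block the melanoma comparisons called 8959, 8748, 3133, 3856 and 1541 genes, and 9, 9, 5, 6 and 5 factors. Levels near 3 counts, as for Zeb1 with vehicle and Tfec, are limited by depth.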
